A study of Mus musculus with 6 samples.

Results

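The genes described here mark fibroblasts of the adventitia, the outer coat of the aorta, and the progenitor-like cells among them. They are Pdgfra, Dpt, Pi16, Cd34, Ly6a, Clec3b, Gsn, Dpep1, Opcml and Serpinf1, found by symbol as 10 of the 56748 rows of the deposited count table. The libraries are bulk RNA sequencing of whole aortas from Apoe-/- mice 6 months old, all given angiotensin II from osmotic minipumps over 28 days. Aortas of 3 wild-type littermates (WT) were compared with those of 3 littermates that lack soluble ST2 (sST2-KO), the secreted receptor isoform that binds the cytokine IL-33. Every animal carried the Apoe deletion and received angiotensin II, so a change due to either could not be measured, and how the sST2 allele was made is not given in the sources used here. Each library was taken as 1 mouse, and the labels name no batch. Where 3 values are given for a group, they are in the order of replicates 1 to 3.

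In the wall of an artery, adventitial fibroblasts deposit collagen and other matrix, respond to growth factors through the receptor PDGFRα, and can turn into matrix-producing myofibroblasts after injury. A subset that carries PI16, CD34, DPP4 and SCA-1 (the product of Ly6a) has been described in many tissues as a reservoir of less specialised fibroblasts. Angiotensin II in Apoe-/- mice is a common model of aortic aneurysm and dissection, in which the adventitia thickens. Several of these genes are also used by other cells: Cd34 and Ly6a by endothelium, Gsn by smooth muscle, fat and myeloid cells.

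Markers common to fibroblasts were abundant in every library, 12007 to 16000 CPM (read counts after TMM scaling for library size) summed over 19 genes in WT and 6706 to 9122 CPM in sST2-KO. Some libraries also held RNA of other organs. sST2-KO replicate 2 had 33374 CPM over 7 airway epithelium markers, against at most 42.2 CPM elsewhere, and WT replicate 3 had 8836 CPM over 7 liver markers, against at most 5.90 CPM. WT replicate 2 had 37.8% of its counts from mitochondrial genes, against 7.08% in sST2-KO replicate 2 and 18.4 to 23.7% in the rest.

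Pi16, Dpt and Ly6a were lower in every sST2-KO aorta than in every WT aorta, and Gsn was higher in every one. Of the 10 genes, 7 had a negative log2 change (lower in sST2-KO) and 3 a positive one, with a median of -0.40, against a median of 0.04 and 46.5% negative over all 16377 genes tested. The 10 genes were chosen with earlier results of these data known, so comparisons with all genes are description only. None of the 10 passed the threshold of adjusted p under 0.05 in edgeR's quasi-likelihood test, in which the share of all genes called was also 0%, and none had an unadjusted p under 0.05, against 11% of all genes. For 4 of the 10 genes no sST2-KO library lay within the WT range, nor the reverse, against 19.1% of all genes. These were 3 lower genes, against 10% of all genes, and 1 higher gene, against 9.09%. With scaling by library totals alone, no gene of the 10 was without overlap. The share of all genes without overlap under that scaling is not given here. Without WT replicate 2 the median of the 10 was -0.17. Leaving out the libraries with liver and airway RNA gave a median of -0.38. Levels here come from whole tissue, so fewer cells of a type and less RNA per cell cannot be told apart.

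**Figure D1:**
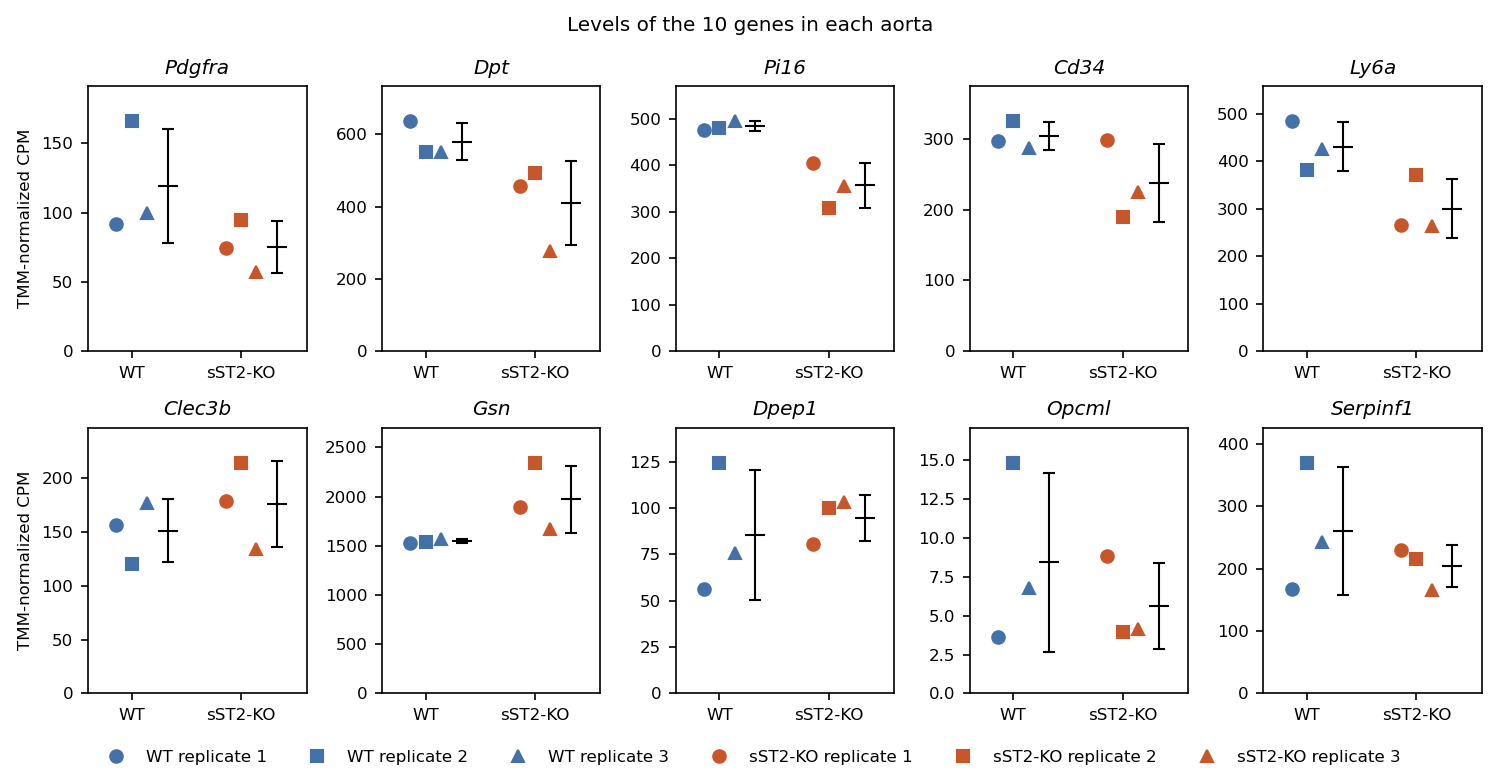
Level of each gene in each aorta, in counts scaled to a common library size by TMM (CPM) on linear axes that start at 0, for 3 WT and 3 sST2-KO libraries. Symbols are libraries, and the bars beside them are the group mean ± SD. The sST2-KO libraries lie below all WT libraries for Dpt, Pi16 and Ly6a and above them for Gsn, and the groups overlap for the other 6 genes.

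The promoters of Dpt, Pi16 and Gsn are shown because these were, besides Ly6a, the genes whose groups did not overlap, with Gsn opposite to the other two. Each is the 250 bases before a RefSeq transcript start on the plus strand of GRCm38.p6, written 5′ to 3′, with the short motifs searched for in capitals. Of the 10 genes, 8 had an entry in the RefSeq table, with 10 windows in all since Gsn has 3 starts, and Ly6a and Clec3b had none.
Dpt promoter, chr1:164796413-164796662: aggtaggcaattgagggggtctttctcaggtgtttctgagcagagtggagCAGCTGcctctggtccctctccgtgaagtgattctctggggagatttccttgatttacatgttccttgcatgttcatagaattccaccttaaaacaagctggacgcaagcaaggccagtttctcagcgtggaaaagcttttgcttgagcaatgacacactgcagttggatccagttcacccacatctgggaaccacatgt
Pi16 promoter, chr17:29318632-29318881: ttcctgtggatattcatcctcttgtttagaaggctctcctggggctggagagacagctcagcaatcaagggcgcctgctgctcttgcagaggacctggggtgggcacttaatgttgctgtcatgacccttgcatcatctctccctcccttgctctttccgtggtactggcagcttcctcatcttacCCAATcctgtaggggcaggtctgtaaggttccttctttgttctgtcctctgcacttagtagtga
Gsn promoter, first start, chr2:35256109-35256358: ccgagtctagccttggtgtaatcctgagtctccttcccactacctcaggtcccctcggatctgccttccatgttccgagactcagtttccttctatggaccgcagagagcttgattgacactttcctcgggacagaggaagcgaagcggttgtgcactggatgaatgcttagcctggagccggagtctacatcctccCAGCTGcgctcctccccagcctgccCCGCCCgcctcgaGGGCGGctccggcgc
Gsn promoter, last start, chr2:35282130-35282379: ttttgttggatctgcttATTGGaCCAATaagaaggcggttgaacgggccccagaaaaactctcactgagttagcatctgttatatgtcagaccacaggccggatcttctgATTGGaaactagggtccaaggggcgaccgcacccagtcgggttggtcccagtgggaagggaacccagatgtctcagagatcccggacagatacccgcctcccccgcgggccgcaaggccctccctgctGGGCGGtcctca
The Dpt window holds the E-box CAGCTG at -200 to -195 from the start, and the Pi16 window holds CCAAT at -64 to -60. The first Gsn window holds CAGCTG at -53 to -48 and the GC box GGGCGG, on one strand or the other, at -28 to -23 and -15 to -10. The last Gsn window has CCAAT 3 times, on either strand, and GGGCGG at -12 to -7. Searched on both strands, CCAAT was in 5 of the 10 windows of these genes and in 33.8% of all 32851 RefSeq windows of this length. CAGCTG was in 3 of 10 and 13.0%, and GGGCGG in 3 of 10 and 32.7%. The TATA box TATAAA, the AP-1 site TGANTCA and the TEAD site ACATTCC were in none of the 10 windows, and in 12.4%, 6.7% and 3.3% of all windows. The counts above are of windows, not of genes. Every window with the GC box belongs to Gsn, and Dpt is the only other gene with the E-box. The middle Gsn window, which is not printed, holds both motifs. Its RefSeq start lies 10295 bases from the nearest transcript start annotated by GENCODE. No motif overlapped another, and a match describes letters, not binding.

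Among surface proteins, Pdgfra encodes the receptor for PDGF ligands that marks most fibroblasts (ENSMUSG00000029231, chromosome 5, 75312953 to 75358876, mm39). It was at 91.6, 166 and 99.9 CPM across the WT replicates and at 74.3, 94.6 and 57.2 CPM across the sST2-KO replicates. WT replicate 2 stood well above the other 5 libraries, and sST2-KO replicate 2 fell inside the WT range. The means were 119 ± 41.0 and 75.3 ± 18.7 CPM (SD, n = 3 each), and the log2 change of -0.66 (SE 0.29), the most negative of the 10, did not pass (edgeR, adjusted p = 0.465). It was -0.37 without WT replicate 2.

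Ly6a encodes SCA-1, a cell surface protein anchored by lipid that is used to sort mouse stem and progenitor cells (ENSMUSG00000075602, chromosome 15, 74866726 to 74869880, mm39). It was at 485, 381 and 425 CPM across the WT replicates and at 265, 371 and 264 CPM across the sST2-KO replicates. All sST2-KO libraries were below all WT libraries, with sST2-KO replicate 2 close to the lowest WT library. The log2 change was -0.52 (SE 0.23; edgeR, adjusted p = 0.465). Ly6a lies among closely related members of its family, and how reads shared between them were assigned is not given in the sources used here.

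Cd34 encodes a sialomucin of progenitors, endothelium and adventitial fibroblasts (ENSMUSG00000016494, chromosome 1, 194621127 to 194643587, mm39). It was at 297, 325 and 287 CPM across the WT replicates and at 298, 189 and 224 CPM across the sST2-KO replicates. sST2-KO replicate 1 reached the WT range, and the other 2 sST2-KO libraries lay below it. The log2 change was -0.35 (SE 0.23; edgeR, adjusted p = 0.552). Dpep1, a membrane dipeptidase (ENSMUSG00000019278, chromosome 8, 123912981 to 123928551, mm39), was at 56.5, 125 and 75.8 CPM across the WT replicates and at 80.4, 99.9 and 103 CPM across the sST2-KO replicates, all 3 inside the WT range. Its log2 change of 0.14 (SE 0.30; edgeR, adjusted p = 0.852) became -0.070 without WT replicate 1 and 0.50 without WT replicate 2.

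Opcml, which encodes a cell adhesion protein of the IgLON family (ENSMUSG00000062257, chromosome 9, 27702071 to 28836706, mm39), was the least abundant, from 62 to 186 counts per library. It was at 3.64, 14.8 and 6.80 CPM across the WT replicates and at 8.81, 3.96 and 4.12 CPM across the sST2-KO replicates. The 14.8 CPM of WT replicate 2 had a counting interval of 12.8 to 17.1 CPM (exact Poisson, 95%), and the 3.64 CPM of WT replicate 1 one of 2.81 to 4.63 CPM, for counting error only. The log2 change was -0.58 (SE 0.59; edgeR, adjusted p = 0.694), and 0.089 without WT replicate 2.

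Among secreted proteins, Dpt encodes dermatopontin, a matrix protein that binds decorin and collagen fibrils (ENSMUSG00000026574, chromosome 1, 164624213 to 164651835, mm39). It was at 637, 549.5 and 549 CPM across the WT replicates and at 457, 494 and 278 CPM across the sST2-KO replicates. Every sST2-KO library was lower, sST2-KO replicate 3 by most. The means were 579 ± 50.7 and 409.5 ± 116 CPM (SD, n = 3 each). The difference on the log2 scale was -0.50 (SE 0.27; edgeR, adjusted p = 0.513), and -0.28 without sST2-KO replicate 3.

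Pi16, peptidase inhibitor 16, is a marker much used for the progenitor-like subset (ENSMUSG00000024011, chromosome 17, 29536654 to 29549567, mm39). It was at 476, 479.7 and 496 CPM across the WT replicates and at 406, 309 and 356 CPM across the sST2-KO replicates. The WT aortas lay close together, at 484 ± 10.8 CPM, above all sST2-KO aortas, at 357 ± 48.3 CPM (SD, n = 3 each). The log2 change of -0.44 (SE 0.20) did not pass (edgeR, adjusted p = 0.469). Over the libraries left out one at a time it ranged from -0.54 to -0.34.

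Serpinf1 encodes PEDF, a secreted serpin that restrains the growth of blood vessels (ENSMUSG00000000753, chromosome 11, 75300595 to 75313527, mm39). It was at 168, 369.8 and 243 CPM across the WT replicates and at 230.4, 216 and 166 CPM across the sST2-KO replicates. Both groups covered the range from 168 to 230.4 CPM, and WT replicate 2 was again the highest library. The log2 change of -0.35 (SE 0.32; edgeR, adjusted p = 0.657) was -0.028 without WT replicate 2.

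The log2 changes of the other secreted genes were positive. Gsn encodes gelsolin, which severs and caps actin filaments and has a plasma form (ENSMUSG00000026879, chromosome 2, 35146392 to 35197904, mm39). It was at 1531, 1535 and 1573 CPM across the WT replicates and at 1895, 2345 and 1673 CPM across the sST2-KO replicates. The WT aortas were nearly alike and every sST2-KO aorta was above them, widely spread. The means were 1546 ± 23.1 and 1971 ± 342 CPM (SD, n = 3 each), and the log2 change of 0.35 (SE 0.26; edgeR, adjusted p = 0.592) was 0.21 without sST2-KO replicate 2.

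Clec3b encodes tetranectin, a plasminogen-binding protein of matrix and plasma (ENSMUSG00000025784, chromosome 9, 122980011 to 122986497, mm39). It was at 156, 119.9 and 177 CPM across the WT replicates and at 179, 214 and 134 CPM across the sST2-KO replicates. The groups overlapped, with sST2-KO replicate 3 below 2 of the WT libraries. The log2 change was 0.22 (SE 0.24; edgeR, adjusted p = 0.717), and 0.051 without sST2-KO replicate 2.

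**Figure D2:**
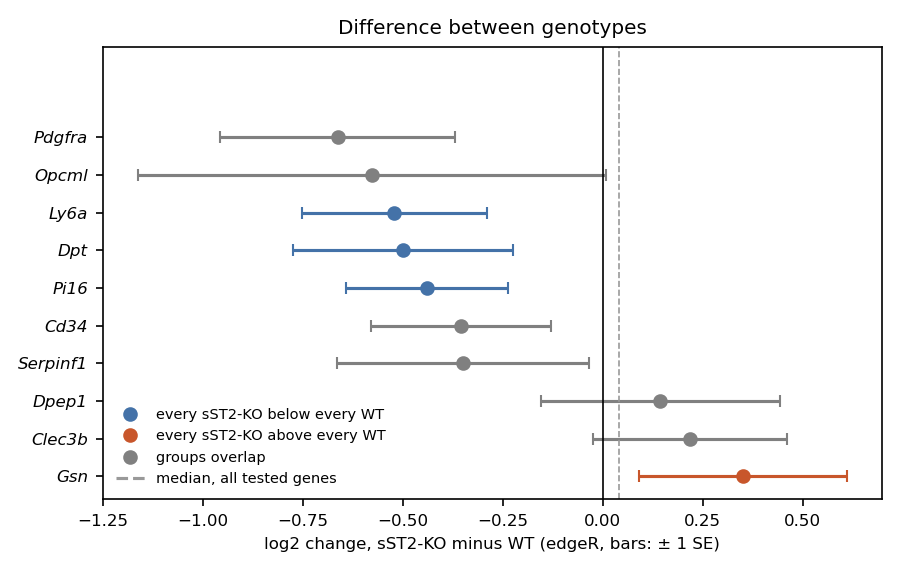
Log2 change of each gene, sST2-KO minus WT, from edgeR (points) with ± 1 SE (bars), coloured by whether the 3 libraries of one group all lie beyond those of the other. The dashed line is the median of all tested genes, 0.04, and 7 genes lie to the left of 0 with Pdgfra at -0.66 and 3 to the right with Gsn at 0.35.

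Per length, as TPM (transcript levels corrected for the deposited gene lengths) averaged over all 6 libraries, the order of levels was Gsn 1317, Ly6a 712, Dpt 669, Clec3b 394, Serpinf1 220.1, Pi16 151, Cd34 84.3, Dpep1 82.1, Pdgfra 21.8 and Opcml 1.03 TPM. Ranges over the libraries overlapped between many neighbours: Ly6a ran from 482 to 1042 TPM and Dpt from 357 to 956 TPM. The ranges of Cd34 (68.3 to 105 TPM) and Dpep1 (58.8 to 118 TPM) also overlapped, whereas that of Pdgfra (12.7 to 27.7 TPM) lay below both and above that of Opcml (0.63 to 1.604 TPM). The secreted proteins and the SCA-1 gene stood above the receptor Pdgfra, in each library.

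The 10 genes did not move as a block from library to library. WT replicate 2 had the highest CPM of 5 genes (Pdgfra, Cd34, Dpep1, Opcml and Serpinf1) and the lowest of Clec3b. sST2-KO replicate 3 had the lowest CPM of 4 (Pdgfra, Dpt, Ly6a and Serpinf1), and its median log2 deviation from each gene's mean was -0.34, against -0.02 to 0.25 in the other 5 libraries. sST2-KO replicate 2 had the highest Gsn and Clec3b and the lowest Pi16 and Cd34. WT replicate 1 had the highest Dpt and Ly6a and the lowest Gsn, Dpep1 and Opcml. These places are those under TMM scaling. With library totals alone, the highest Cd34 was in WT replicate 1 (322 CPM) and the highest Dpep1 in sST2-KO replicate 2 (119 CPM). The lowest Gsn was then in WT replicate 2 (1198 CPM). The lowest Pi16 and Cd34 were in sST2-KO replicate 3 (343 and 216 CPM). The other places did not change.

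**Figure D3:**
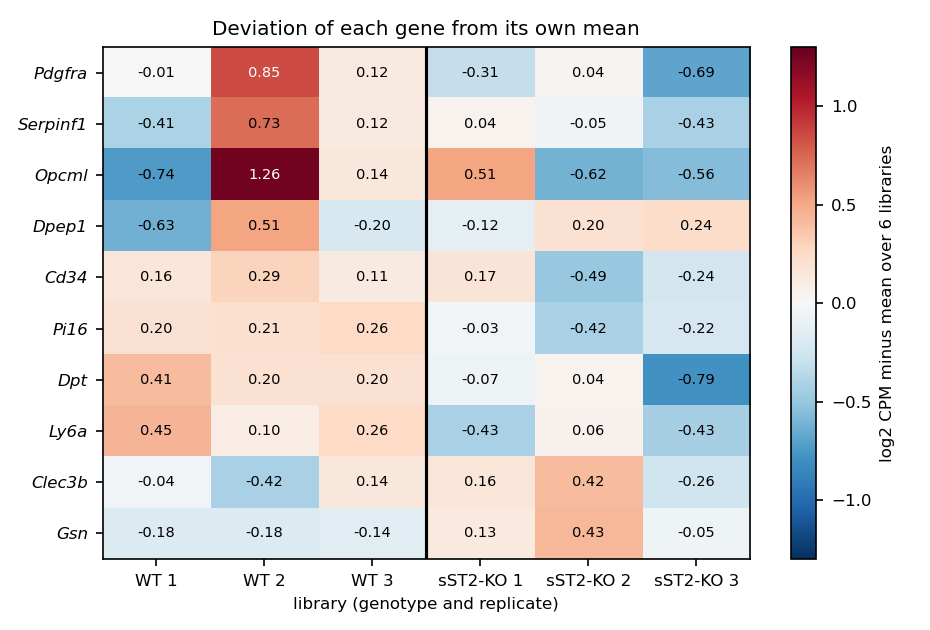
Log2 CPM of each gene in each library minus its mean over the 6 libraries, red above and blue below. WT replicate 2 is highest for Pdgfra, Serpinf1, Opcml, Dpep1 and Cd34, and Gsn and Clec3b are highest in sST2-KO replicate 2.

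Ratios of raw counts between 2 genes of a library do not depend on the scaling between libraries. Gsn counts were 2.40, 2.79 and 2.86 times those of Dpt across the WT replicates and 4.14, 4.75 and 6.03 times across the sST2-KO replicates. Gsn counts were 3.22, 3.20 and 3.17 times those of Pi16 across the WT replicates and 4.67, 7.59 and 4.70 times across the sST2-KO replicates. In both ratios every sST2-KO library was above every WT library, with means of 2.69 ± 0.248 and 4.97 ± 0.963 for Gsn over Dpt (SD, n = 3 each). That separation was fixed by the levels above, where Gsn was higher and Dpt and Pi16 lower in every sST2-KO library. It is not separate evidence. Among the 10 genes, Gsn took 37.7 to 40.0% of the counts in WT and 48.7 to 54.1% in sST2-KO.

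Clec3b over Ly6a was 0.322, 0.314 and 0.416 across the WT replicates and 0.674, 0.577 and 0.509 across the sST2-KO replicates. Dpep1 over Pdgfra was 0.616, 0.748 and 0.758 across the WT replicates and 1.08, 1.06 and 1.80 across the sST2-KO replicates. Neither ratio overlapped between the groups, while Pdgfra over Pi16 and Serpinf1 over Dpt did. These pairs were chosen after their values were seen. Taken relative to Gsn, 5 of the other 9 genes (Pdgfra, Dpt, Pi16, Cd34 and Ly6a) were lower in all sST2-KO libraries, against 25.7% of all genes. None were higher, against 1.58%. Dpt, Pi16 and Ly6a had to be among the lower genes, since they were lower and Gsn higher without overlap before the division. The count is therefore not a separate result for them. Taken relative to Pdgfra, 3 of the other 9 (Clec3b, Gsn and Dpep1) were higher without overlap, which is near the 30.7% of all genes, and none were lower, against 0.605%.

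**Figure D4:**
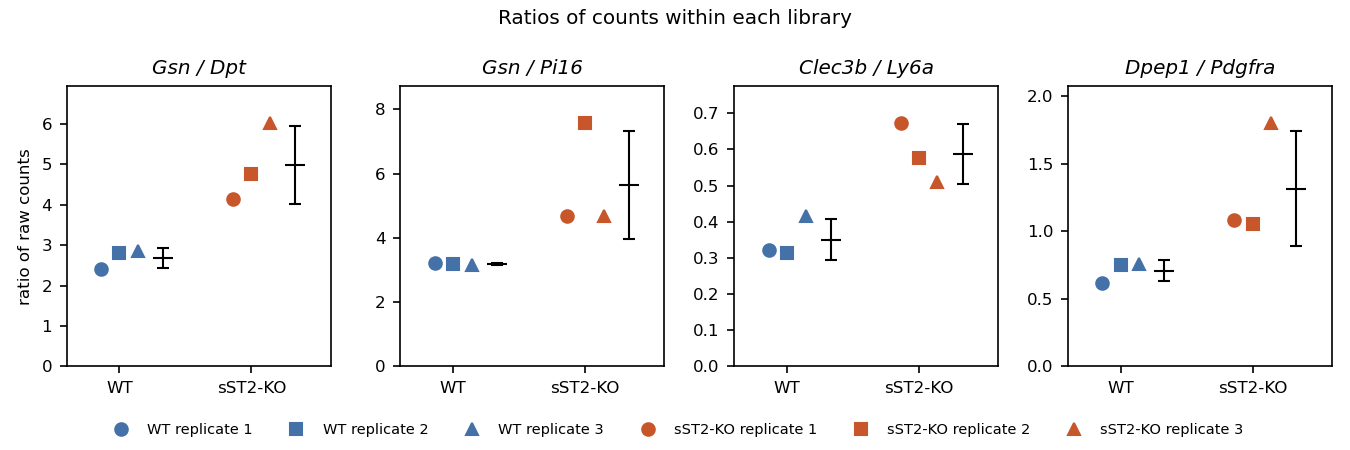
Ratio of raw counts of 2 genes within each library, on linear axes from 0, with the group mean ± SD beside the points. Only ratios whose groups did not overlap are drawn, so the 3 sST2-KO libraries lie above the 3 WT libraries in each of the 4 by selection. An example is Gsn over Dpt, at 4.14 to 6.03 against 2.40 to 2.86. Pdgfra over Pi16 and Serpinf1 over Dpt overlapped and are not drawn.

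Other markers of the progenitor-like subset, and the related lists after them, were described beside the 10 genes. These lists were also chosen with earlier results of these data known. Their counts beside the shares of all genes are therefore description, not separate support. Of 14, 13 had a negative log2 change, with a median of -0.79. None passed in edgeR, where 6 had an unadjusted p under 0.05 and a lower level, against 5.95% of all genes. In DESeq2 3 (Dpp4, Efemp1 and Sfrp4) were called lower, against 1.6% of all genes it tested, and none of the 10 genes was. Dpp4, the CD26 peptidase by which these cells are sorted, was at 24.9, 21.9 and 24.0 CPM across the WT replicates and at 12.6, 7.57 and 8.72 CPM across the sST2-KO replicates. Its groups lay far apart for a log2 change of -1.29 (SE 0.25), which did not pass in edgeR (adjusted p = 0.335) and did in DESeq2 (adjusted p = 0.00146). Efemp1, fibulin 3, had a log2 change of -0.98 (SE 0.25) and 154 ± 19.7 against 78.2 ± 23.1 CPM (SD, n = 3 each).

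Fbn1, which encodes the microfibril protein fibrillin 1, had a log2 change of -1.08 (SE 0.37), and Sfrp4, a secreted modulator of Wnt signalling, -1.66 (SE 0.50). Both were highest in WT replicate 2, where Sfrp4 reached 806 CPM against 204 and 303 CPM in the other WT libraries. Without WT replicate 2 the median of the 14 was -0.52.

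Of 19 general fibroblast genes, 16 had a negative log2 change, with a median of -0.53. Of the 19, 11 were lower without overlap, against 10% of all genes. In edgeR none passed and 8 had an unadjusted p under 0.05 and a lower level, against 5.95% of all genes. DESeq2 called 2 lower, Lum and Col5a2, against 1.6% of all genes it tested. Lum, the collagen-binding proteoglycan lumican, was at 1593, 1362 and 1253 CPM across the WT replicates and at 507, 601 and 369 CPM across the sST2-KO replicates. Its log2 change of -1.51 (SE 0.28) was larger in size than that of any of the 10 genes and did not pass in edgeR (adjusted p = 0.335). It was called by DESeq2 (adjusted p = 3.7e-06) and by limma-voom with quality weights (adjusted p = 0.0425). Dcn (decorin) had a log2 change of -0.92 (SE 0.34), Col1a2 (a chain of type I collagen) -0.75 (SE 0.28) and Col5a2 (a chain of type V collagen) -0.79 (SE 0.22).

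All 15 genes of activated fibroblasts had a negative log2 change, with a median of -0.66. Of the 15, 6 were lower without overlap, against 10% of all genes. In edgeR none passed and 7 had an unadjusted p under 0.05 and a lower level, against 5.95% of all genes. DESeq2 called 4 lower, against 1.6% of all genes it tested: Timp1, Cthrc1, Fn1 and, named after its values were seen, Col8a1. Timp1, an inhibitor of matrix metalloproteinases, had a log2 change of -1.12 (SE 0.23) and Cthrc1, a secreted protein of scar-forming fibroblasts, -0.91 (SE 0.22). Fn1 (fibronectin) was at -1.03 (SE 0.35) and highest in WT replicate 2, and Postn (periostin) at -0.66 (SE 0.52) with overlapping groups. The median of this list was -0.54 without WT replicate 2, and that of the general fibroblast list -0.40.

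**Figure D5:**
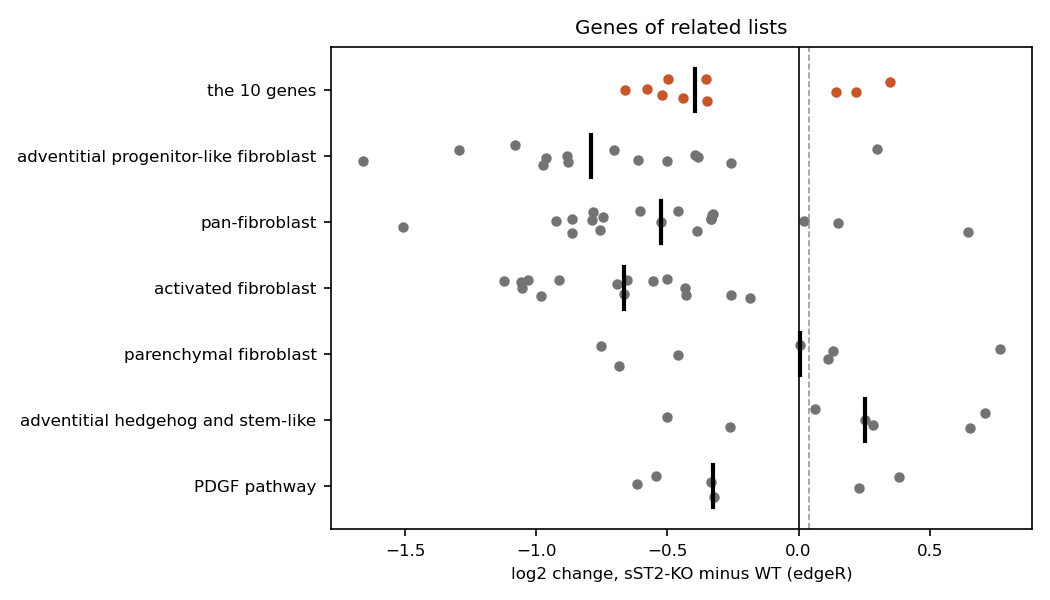
Log2 change of single genes (points), sST2-KO minus WT, in edgeR for the 10 genes (orange) and for lists of related genes (grey), with the median of each list as a black bar and the median of all tested genes, 0.04, as a dashed line. The median is -0.40 for the 10 genes, -0.79 for other progenitor-like markers and -0.66 for genes of activated fibroblasts. The median is 0.25 for hedgehog and stem-like genes and 0.006 for parenchymal fibroblast genes.

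Among other genes of the PDGF pathway, the ligand gene Pdgfc and the receptor-like gene Pdgfrl were lower in every sST2-KO aorta. Pdgfc was at 50.7, 61.4 and 50.2 CPM across the WT replicates and at 36.8, 26.5 and 42.8 CPM across the sST2-KO replicates. Its log2 change was -0.61 (SE 0.21; edgeR, adjusted p = 0.435). Pdgfrl had a log2 change of -0.54 (SE 0.15). Pdgfa, whose product binds PDGFRα, was at 0.38 (SE 0.19), Pdgfb at 0.23 (SE 0.37) and Pdgfd at -0.32 (SE 0.45), with groups that overlapped. Pdgfrb, the other PDGF receptor, was at -0.33 (SE 0.24). Of these 6 genes 4 were negative, with a median of -0.33, and none passed in edgeR. There, 2 had an unadjusted p under 0.05 and a lower level, against 5.95% of all genes.

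Paralogs that passed the filter on low counts are given beside the gene they are related to. Beside Ly6a at -0.52, Ly6c1 was at -0.43 (SE 0.32), Ly6c2 at -1.55 (SE 0.61) and Ly6e at 0.24 (SE 0.36), all with overlapping groups. Beside Pi16 at -0.44, Pi15 was at -1.09 (SE 0.43), lower in every sST2-KO aorta but at 230 CPM in WT replicate 2 against 79.7 and 86.5 CPM in the others, and Glipr1 was at -0.24 (SE 0.23). Beside Gsn at 0.35, its relatives Flii (0.14, SE 0.15), Svil (0.22, SE 0.24), Capg (-0.31, SE 0.23) and Scin (0.89, SE 1.13) overlapped between the groups. Podxl, related to Cd34, was at 0.21 (SE 0.38). Beside Dpep1 at 0.14, Dpep2 was at -1.76 (SE 0.50), the paralog furthest from 0. Its level was low, at 1.87, 1.75 and 1.07 CPM across the WT replicates and at 0.398, 0.445 and 0.532 CPM across the sST2-KO replicates, all below WT (edgeR, adjusted p = 0.413). Beside Opcml at -0.58, Lsamp was at 0.66 (SE 0.88), Negr1 at 0.52 (SE 0.61) and Iglon5 at -0.81 (SE 0.37), all with overlapping groups. None of these paralogs passed in edgeR, and differences between paralogs were not tested.

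Markers of other cell types also varied between the libraries. In sST2-KO replicate 2, with airway transcripts, Gsn and Clec3b were highest. Of 6 lung fibroblast genes tested, 5 were positive, and the list summed to 469 to 764 CPM in WT and 807 to 1174 CPM in sST2-KO. Only Ces1d, 1 of these 6 genes, was without overlap and higher in sST2-KO, against 9.09% of all genes. It was at 262, 38.3 and 209 CPM across the WT replicates and at 399, 413 and 584 CPM across the sST2-KO replicates. Ces1d held much of the sums in sST2-KO. The highest sum, 1174 CPM, was in sST2-KO replicate 3, whose airway markers summed to 22.0 CPM and white adipocyte markers to 8304 CPM. The cell source of Ces1d was not tested. Smooth muscle genes, 7 of 8 positive, summed to 3054 to 9316 CPM in WT and 5074 to 10552 CPM in sST2-KO. Endothelial genes, all 8 positive, summed to 964 to 1200.3 CPM and 753 to 2025 CPM.

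Macrophage genes had a median log2 change of -0.90, with 7 of 8 negative and 5 lower without overlap, against 10% of all genes. In edgeR none passed and 6 had an unadjusted p under 0.05 and a lower level, against 5.95% of all genes. DESeq2 called 4 lower, against 1.6% of all genes it tested: Adgre1, Itgam, Csf1r and Mrc1, named after their values were seen. The summed level of the 8 overlapped, at 2988 to 3468 CPM in WT and 2073 to 3755 CPM in sST2-KO. Lyz2, the most abundant of them, held much of that sum, at 1844 to 2043 CPM in WT and 1373 to 3152 CPM in sST2-KO.

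White adipocyte genes, 6 of 7 positive, summed to 1429 to 4379 CPM in WT and 1192 to 8304 CPM in sST2-KO. Brown adipocyte genes, all 6 positive with a median of 1.84, summed to 156 to 300 CPM in WT, to 1193 and 2368 CPM in sST2-KO replicates 1 and 3, and to 129 CPM in sST2-KO replicate 2. Erythroid genes, all 6 negative with a median of -2.65, summed to 745 to 4768 CPM in WT and 60.5 to 1177 CPM in sST2-KO. Schwann cell genes, all 6 positive with a median of 1.67, summed to 592 CPM in sST2-KO replicate 2 and 62.1 to 105 CPM elsewhere. Mesothelial genes, 3 of 6 negative, summed to 13.9 to 291 CPM in WT and 36.4 to 830 CPM in sST2-KO. None of these lists held a gene called in edgeR. The part of these cells in the levels of Gsn, Cd34, Ly6a and the others was not tested.

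As a check of the genotype, Il1rl1, the gene of ST2, was at 2.81, 9.49 and 4.35 CPM across the WT replicates and at 2.39, 2.82 and 4.86 CPM across the sST2-KO replicates. The groups overlapped, and counts per gene do not separate the soluble from the membrane isoform. Il33, which adventitial fibroblasts are known to express, was lower in every sST2-KO aorta, at 170 ± 43.1 against 63.8 ± 25.9 CPM (SD, n = 3 each). The difference of -1.42 on the log2 scale (SE 0.33) was not called by edgeR (adjusted p = 0.354), but was by DESeq2 (adjusted p = 0.00851) and by limma-voom with quality weights (adjusted p = 0.0425).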

How the data were processed

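Aortas of 3 WT and 3 sST2-KO mice were sequenced as poly-T selected RNA, per the labels' protocols. The authors deposited raw counts per gene with gene lengths, symbols and coordinates. The submitters' processing notes name genome build mm39; the aligner, counter, strand setting and annotation were not given in the sources used here, so reads of overlapping genes cannot be told apart. Totals were 15615658 to 17988552 counts. A count of 0 allows 3 counts, 0.148 to 0.239 CPM, for counting error only.

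Genes passing filterByExpr (minimum count 10, total 15) were scaled by TMM and tested with edgeR 4.0.16 in R 4.3.3 (glmQLFit, glmQLFTest), with Benjamini-Hochberg adjustment over all 16377 genes tested and a threshold of 0.05. The standard error (SE) is that of the log2 change. DESeq2 1.42.0, limma-voom 3.58.1 and other settings were alternatives. Promoters are from RefSeq. Plots used matplotlib 3.10.9. The 10 genes and the related lists were chosen with earlier results of these data known. The rule names all 10 genes and allows, of each related list, the 2 most abundant and the 2 with the lowest p, of each list of another cell type the 2 most abundant, and paralogs and PDGF genes.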

Additional observations from a re-analysis of the deposited data

How the results depend on the processing

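None of the 10 genes was called under any of the 18 alternatives; the lowest adjusted p was 0.095, for Ly6a in limma-voom with quality weights. Pdgfra, Dpt, Pi16, Cd34, Ly6a, Gsn and Serpinf1 kept their direction in all 18. The alternative with a looser threshold of 0.1 reuses the main fit, so its log2 changes could not reverse. Of 180 values, 4 reversed: Clec3b to -0.020 and Opcml to 0.11 with quality weights, and, leaving out 1 library, Dpep1, which ranged from -0.070 to 0.50, and Opcml, from -1.05 to 0.089. The cause was not tested. The median of the 10 was -0.15 with quality weights and ranged from -0.49 to -0.17 when each library was left out, the last without WT replicate 2. With library totals alone, which moved the median of all genes by 0.10, the number of genes of the 10 without overlap was 0 in place of 4. The matching share of all genes is given for TMM scaling only. Over all genes, edgeR called 0, with 1806 at an unadjusted p under 0.05, limma-voom 0, DESeq2 291 (59 higher, 232 lower) and quality weights 43 (8 higher, 35 lower). Leaving out each library gave 0 to 1 calls in edgeR, the 1 without sST2-KO replicate 2. With the replicate number as a block, the median of the 10 was -0.41, 7 were negative and 0 were called. Nothing in the labels says that the numbers pair animals, so they were not taken as pairs, and the block changed no call. Same-numbered libraries correlated at 0.15, 0.05 and -0.09 in their deviations from the group means, and differently numbered ones at -0.12 to 0.05. With 3 libraries per group, these values do not decide whether the numbers pair animals. Opcml, with 62 to 186 counts, is the gene most limited by depth.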

Other observations

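Of 7 genes tied to hedgehog signalling and stem-like cells of the adventitia, 2 had a negative log2 change and the median was 0.25. None passed in edgeR, and none had an unadjusted p under 0.05, against 11% of all genes. Klf4, a transcription factor of stem-like cells, was at 0.06 (SE 0.26), and Thy1, a surface protein of fibroblasts, at -0.50 (SE 0.27), with Eng at 0.25 (SE 0.32) and Kit at 0.65 (SE 0.40). Genes of parenchymal fibroblasts had a median of 0.006, with 3 of 7 negative. Of these, Cxcl12, a chemokine, was lower in every sST2-KO aorta, at 494 ± 23.2 against 307 ± 61.2 CPM (SD, n = 3 each). The difference of -0.68 on the log2 scale (SE 0.22) was not called by edgeR (adjusted p = 0.431), while Lpl, lipoprotein lipase, also made by adipocytes, was at 0.77 (SE 0.69), Hspg2 at 0.11 (SE 0.26) and Gdf10 at -0.75 (SE 0.40). Differences between these lists and the 10 genes were not tested.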
